A study of Homo sapiens with 12 samples.

Results

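This account covers 80 human genes with symbols of families known to write, remove or read out histone modifications or move nucleosomes. Not every member has such a role. The genes were measured in U251 cells, an established glioblastoma line, after knock-down of the transcription factors ETV6 and NFKB1. They were chosen by a rule on gene symbols, with earlier results of these data known. The rule takes the lysine demethylases (symbols that begin with KDM), the lysine methyltransferases (KMT and SETD), the histone deacetylases (HDAC) and the sirtuins (SIRT). It also takes the SWI/SNF and ISWI subunits (SMARC), the AT-rich interaction domain genes (ARID) and the CHD remodellers. The 80 are drawn from 10346 genes with a probe set of their own on the array, and 1 further gene that met the symbol rule was left out. Each gene was followed by its brightest probe set, judged over the 12 arrays. Of the 80, 65 passed the filter on low values (a mean of at least log2 7.54, the 25th percentile over all genes) and were tested beside 7760 genes in all. KDM7A-DT, a noncoding transcript that runs divergently from KDM7A, also met the symbol rule and is among the 15 that were not tested.

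The 12 arrays form 4 groups of 3. Cells received the control siRNA, the siRNA pool against ETV6, the pool against NFKB1, or the pools against both genes (the double knock-down). All 4 groups are the same parental line, transfected with DharmaFECT 2 and a pool of siRNAs at 50 nM each. The control siRNA has no known human target. The double knock-down received 50 nM of each pool, and no control at its higher total siRNA load was included. That load and the knock-down of both targets cannot be told apart. The knock-down is transient and partial, so each group holds the RNA that was left. The labels do not say how long after transfection the cells were harvested. These are bulk samples, so a lower value in all cells and a loss from some of them cannot be told apart.

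Chromatin regulators work in complexes. SWI/SNF, ISWI and CHD proteins use ATP to slide, space or evict nucleosomes, methyltransferases and demethylases set the methylation of histone lysines, and deacetylases remove acetyl groups and are mostly found in corepressor complexes. ETV6 is an ETS family repressor known to recruit such deacetylase complexes, and NFKB1 encodes the p105 precursor and its product p50, a subunit of NF-kB. Mutations of chromatin regulators recur in glioma.

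On the log2 scale of the deposited values, ETV6 read 9.02, 9.02 and 8.58 with control siRNA, 6.80, 6.78 and 6.60 with ETV6 siRNA, 8.73, 8.72 and 8.64 with NFKB1 siRNA and 7.44, 7.36 and 7.29 with both. NFKB1 read 7.22, 7.24 and 7.49 with control siRNA, 7.85, 7.75 and 7.85 with ETV6 siRNA, 6.95, 6.75 and 6.05 with NFKB1 siRNA and 6.50, 6.58 and 6.57 with both. ETV6 was left at 22.6% of control with its own siRNA and at 35.1% with both, and NFKB1 at 60.3% and 58.8%. NFKB1 lies under the filter on low values and was kept in the test because it was targeted, and NFKB1 siRNA replicate 3 is lower than the other 2 replicates. Glioma and astrocyte markers on the array (7 of a list of 9, among them VIM, SOX2 and GFAP) all passed the filter, at percentile 48.3 (S100B) to 100 (VIM) of all genes. Their summed linear signal was 59782 to 63584 in control, 57606 to 58720 with ETV6 siRNA, 57003 to 59719 with NFKB1 siRNA and 55549 to 58171 with both. With both siRNAs NES, the neural progenitor filament nestin, fell (log2 -1.16), as did GFAP (-0.54), while S100B rose (0.38). Of 14 markers of other cell types 3 had a probe set here, at percentile 15.3 to 30.9, and their summed linear signal was 496 to 571 in control, 610 to 660 with ETV6 siRNA, 543 to 589 with NFKB1 siRNA and 481 to 504 with both. KRT18 and COL1A1 fell with both siRNAs (log2 -0.55 and -0.39), and MBP, under the filter, read 6.575 to 6.848 in control, 7.030 to 7.403 with ETV6 siRNA and 7.403 to 7.495 with both. Control replicate 3 stood apart from the other 2 control arrays (correlations within the control group 0.9791 to 0.9959, within the other groups at least 0.9946). The double knock-down arrays had a larger 3′ over 5′ difference for ACTB (2.05 to 2.16 against 1.54 to 1.91 in control, log2) and lower poly-A spike-ins (7.97 to 8.05 against 8.53 to 9.35). These marker and array measures move with the groups in the results below, and their part in the results was not tested.

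A gene is said to have risen or fallen where limma's moderated test over all 7760 genes gave a Benjamini-Hochberg adjusted p under 0.05; percentages of control are 2 to the power of the log2 change. Each control comparison sets 3 arrays against the same 3 control arrays, so the 3 comparisons share them. With ETV6 siRNA 0 of the 65 rose and 4 fell (CHD1, CHD9, KMT2C and SMARCA2), beside 4.38% and 6.28% of all genes tested. The 4 became 1 without ETV6 replicate 1, 1 without ETV6 replicate 3 and 0 when only the groups compared were fitted, while array weights gave 8 rises and 10 falls. With NFKB1 siRNA 12 rose and 21 fell, or 18.5% and 32.3% of the members beside 15.5% and 25.1% of all genes; without NFKB1 replicate 2 the 12 became 5. When only the groups compared were fitted 19 of these 33 calls were kept; the 14 lost were CHD4, CHD7, HDAC3, HDAC4, HDAC9, KDM2B, KDM5D, KMT2E, SETD2, SETD4, SETD7, SETDB1, SIRT7 and SMARCD2. With both siRNAs 21 rose and 30 fell, or 32.3% and 46.2% of the members beside 31.9% and 49% of all genes. Those shares lie close to those over all genes, so the number of chromatin genes that moved is not itself a feature of the class, and what follows is which members moved, how far and in which group. Median log2 changes of the 65 were 0.02, 0.01 and -0.10 with ETV6, NFKB1 and both siRNAs, beside 0.00, 0.01 and -0.13 over all genes.

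On the deposited values, rises outnumbered falls among the larger changes under both siRNAs. More than 1.5-fold, 14 members rose and 3 fell in the double knock-down, whereas 0 rose and 8 fell with NFKB1 siRNA and 0 rose and 2 fell with ETV6 siRNA. Over all 7760 genes the same counts were 1284 and 1075, 28 and 607, and 10 and 92. Without control replicate 3 the member counts were 14 and 7, 0 and 5, and 0 and 1. Over 2-fold, 4 of the 65 members rose with both siRNAs (KDM7A, HDAC9, SETD7 and SMARCA5), beside 565 of all 7760 genes. Shifting the arrays to a common median moved the median change of all genes to 0.10 with NFKB1 siRNA and to -0.24 with both, and the split of NFKB1 calls among members from 12 higher and 21 lower to 19 and 18, so the direction of that split depends on the scaling. Quantile normalization gave 21 and 18. The common median also lowers the members' changes with both siRNAs. Their calls there went from 21 higher and 30 lower to 17 and 35, and to 18 and 33 after quantile normalization. The counts over 1.5-fold and 2-fold were made on the deposited values only, so their lean to rises is not shown to hold under the other scalings.

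**Figure D1:**
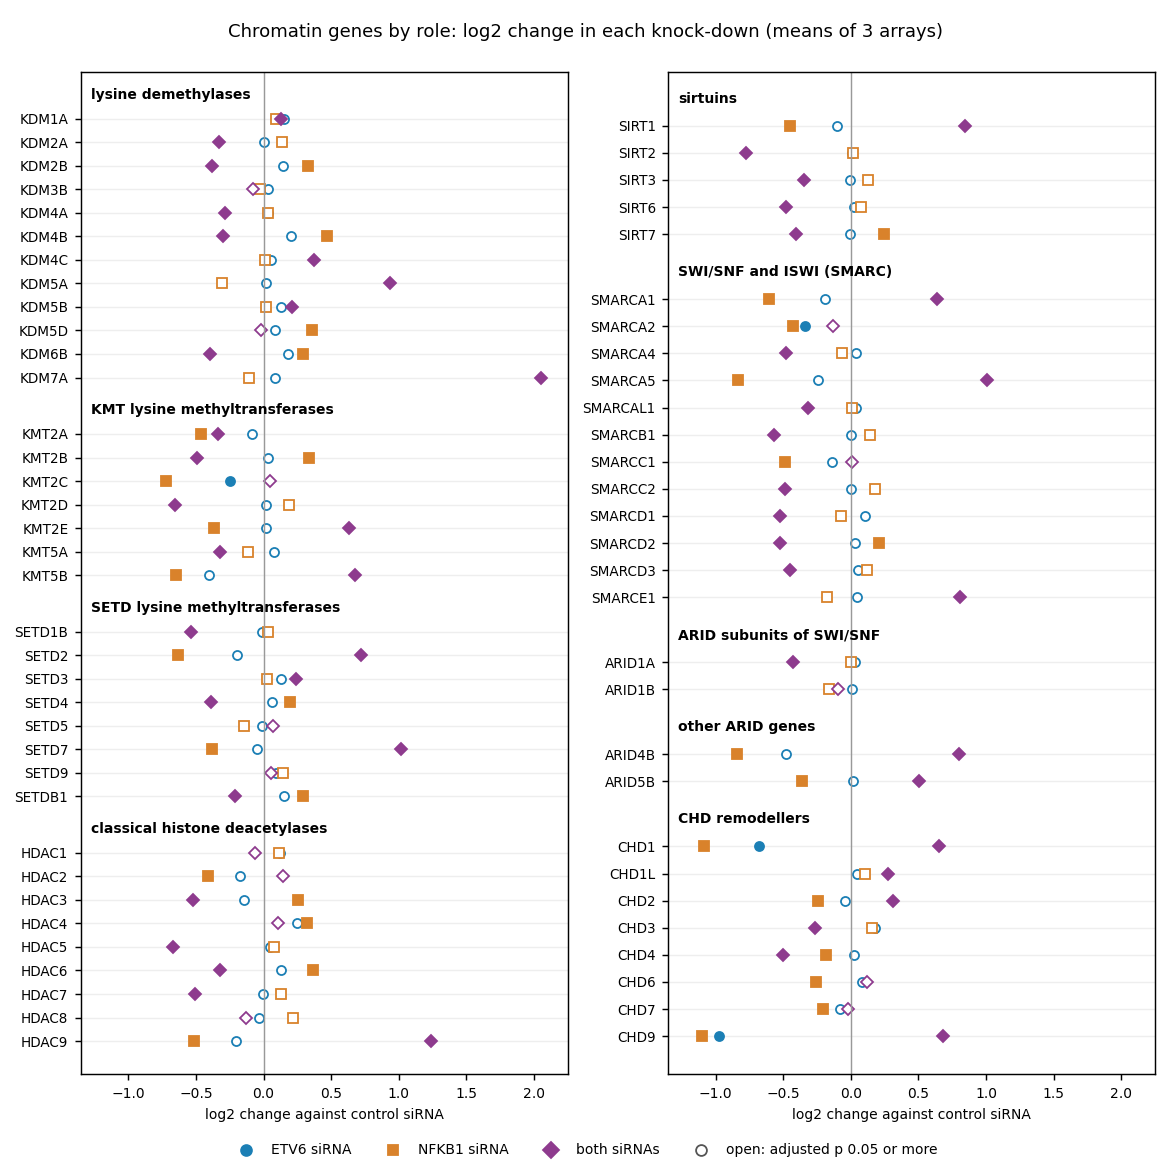
Log2 change against control siRNA (x axis) of the 65 tested chromatin genes, grouped by role, for ETV6 siRNA (circles), NFKB1 siRNA (squares) and both siRNAs (diamonds); filled symbols passed the test at an adjusted p under 0.05. KDM7A lies farthest to the right with both siRNAs at 2.05, CHD9 farthest to the left with NFKB1 siRNA at -1.10, and most circles are open and near 0.

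The members' promoters were searched for the motifs that ETS factors and NF-kB are known to bind, as a description. RefSeq starts (GRCh38.p14) were found for 70 of the 80 members, and the 250 bases before each start were searched on both strands. The ETS core CCGGAAG, which on the other strand is spelled CTTCCGG, occurs before a start of 14 of the 70 (20.0%), beside 10.2% of 27305 genes, and before 12.3% of the members' 114 starts, beside 8.5% of 35116 starts. The kB motif GGGANTTTC, which on the other strand is spelled GAAANTCCC, occurs at 1 of the 70, KDM1A (1.4%, as over all genes). These 4 windows are shown because they belong to the member that rose most with both siRNAs, to 1 of the 4 that fell with ETV6 siRNA, to the CHD remodeller that fell most with both, and to the one kB match; capitals mark the motif.
KDM7A: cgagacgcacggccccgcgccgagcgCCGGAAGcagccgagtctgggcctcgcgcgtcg
SMARCA2: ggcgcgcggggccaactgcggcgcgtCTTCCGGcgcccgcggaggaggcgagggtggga
CHD4: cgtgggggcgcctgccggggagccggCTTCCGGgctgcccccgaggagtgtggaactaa
KDM1A: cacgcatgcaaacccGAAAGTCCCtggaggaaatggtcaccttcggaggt
They lie at chr7:140177098-140177156 (minus strand), chr9:2015197-2015255 (plus strand), chr12:6606583-6606641 (minus strand) and chr1:23019218-23019267 (plus strand), upstream of a start and outside the transcript that begins there, with the motif 140, 117, 157 and 226 bases before it. The KDM7A window, read on the other strand, also lies before the start of KDM7A-DT, and both are counted among the 14. Among members with a promoter sequence, the ETS core was present at 1 of 4 that fell with ETV6 siRNA and 10 of 54 not called there. That 1 is SMARCA2, and CHD1, CHD9 and KMT2C had no match. Split by the double knock-down, the core was present at 3 of 21 that rose, 6 of 26 that fell and 2 of 11 that were not called. The median GC content of these 3 sets was 68.0%, 66.6% and 67.2%, beside 58.0% over all genes, each gene taken at its first listed start. A match is no evidence that either factor binds there.

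Lysine demethylases split in the double knock-down, 5 rising and 5 falling of 12 tested, beside 31.9% and 49% of all genes. Under both other scalings, a common array median and quantile normalization, 3 rose and 6 fell. KDM7A, which removes methyl groups from H3K9 and H3K27, changed more than any other member in any comparison with control. Its arrays read 7.12, 7.09 and 7.81 with control siRNA, 7.37, 7.51 and 7.37 with ETV6 siRNA, 7.47, 7.16 and 7.05 with NFKB1 siRNA and 9.49, 9.27 and 9.40 with both. The 3 double knock-down arrays lie well above the other 9, which overlap one another, and the highest of those 9 is control replicate 3. The change with both siRNAs was 2.05 (SE 0.17, adjusted p = 2.26e-06), a 4.14-fold rise. The second KDM7A probe set, which lies under the filter on low values, gave 1.67. With either siRNA alone the log2 change was 0.08 and -0.11, neither called.

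KDM5A, a demethylase of H3K4, read 7.59, 7.59 and 8.02 in control, 7.79, 7.72 and 7.74 with ETV6 siRNA, 7.42, 7.58 and 7.28 with NFKB1 siRNA and 8.77, 8.71 and 8.53 with both. The double knock-down arrays again stand above all others, and the rise was 1.92-fold (log2 0.94, SE 0.12, adjusted p = 1.96e-05). KDM5B, of the same substrate, rose to 116% of control, but not when the arrays were given a common median (log2 0.10, adjusted p = 0.258). KDM4C, an H3K9 demethylase, rose to 130%.

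The falls among the demethylases were smaller. KDM4B, which acts on H3K9, read 10.15, 10.29 and 9.94 in control, 10.37, 10.29 and 10.32 with ETV6 siRNA, 10.61, 10.63 and 10.56 with NFKB1 siRNA and 9.81, 9.87 and 9.79 with both. Its NFKB1 siRNA arrays were the highest of all and its double knock-down arrays the lowest, with no overlap between those groups and control. It rose with NFKB1 siRNA, by a log2 of 0.47 (SE 0.07, adjusted p = 0.000552), and fell with both siRNAs, to 81.2% of control (log2 -0.30, SE 0.07, adjusted p = 0.00275). KDM6B, an H3K27 demethylase known for its induction in inflammation, read 8.24, 8.31 and 8.10 in control, 8.47, 8.30 and 8.41 with ETV6 siRNA, 8.45, 8.52 and 8.56 with NFKB1 siRNA and 7.77, 7.82 and 7.86 with both. It rose with NFKB1 siRNA (log2 0.29, SE 0.07, adjusted p = 0.00436) and fell with both (log2 -0.40, SE 0.07, adjusted p = 0.000153). The other KDM6B probe set above the filter gave 0.37 with NFKB1 siRNA and only -0.12 with both. KDM2B, which brings a Polycomb complex to CpG islands, had 0.33 and -0.39, both called as well. KDM4A fell to 82.1% and KDM2A to 79.4% with both siRNAs, the latter not without control replicate 2 (log2 -0.28) or double knock-down replicate 3 (-0.30). KDM1A, the demethylase of the CoREST complex, read 8.53, 8.49 and 8.51 in control and 8.62, 8.62 and 8.68 with both siRNAs. Its rise (log2 0.13, SE 0.05, adjusted p = 0.0326) was lost when the arrays were given a common median (log2 0.02) or quantile normalized (log2 0.04), and without control replicate 2 or any 1 of the double knock-down arrays (log2 0.11 to 0.14). KDM5D rose with NFKB1 siRNA by a log2 of 0.36 (0.32 and not called without NFKB1 replicate 2), and KDM3B was called in none of the control comparisons.

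Among the KMT genes, 4 of 7 tested fell and 1 rose with NFKB1 siRNA, and 4 fell and 2 rose with both siRNAs. Over all genes 25.1% fell and 15.5% rose with NFKB1 siRNA, and 49% fell and 31.9% rose with both. KMT2C, a catalytic subunit of the enhancer H3K4 methyltransferase complexes, read 10.06, 10.12 and 10.08 in control, 9.82, 9.95 and 9.75 with ETV6 siRNA, 9.42, 9.34 and 9.34 with NFKB1 siRNA and 10.16, 10.17 and 10.06 with both. The NFKB1 siRNA arrays form the lowest group, the ETV6 siRNA arrays lie between them and control, and the double knock-down overlaps control. It fell to 84.3% of control with ETV6 siRNA (log2 -0.25, SE 0.06, adjusted p = 0.0194) and to 60.6% with NFKB1 siRNA (log2 -0.72, SE 0.06, adjusted p = 6.69e-06). With both siRNAs the change was 0.05 (95% interval -0.08 to 0.17). All 4 of its probe sets gave -0.60 to -0.76 with NFKB1 siRNA. The ETV6 siRNA result was not called without ETV6 replicate 1 (-0.24, adjusted p = 0.0701) or 3 (-0.20, adjusted p = 0.0851) or control replicate 2 (-0.23, adjusted p = 0.061), when only the groups compared were fitted (adjusted p = 0.111), or on the mean of its probe sets (-0.29, adjusted p = 0.096).

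KMT2D, its close relative, behaved otherwise. Its arrays read 9.16, 9.03 and 8.60 in control, 9.01, 8.97 and 8.87 with ETV6 siRNA, 9.20, 9.20 and 8.97 with NFKB1 siRNA and 8.25, 8.28 and 8.28 with both. Only the double knock-down arrays stand apart, below the other 9, and it fell to 63.3% of control (log2 -0.66, SE 0.12, adjusted p = 0.000298). KMT2B, which trimethylates H3K4 at promoters, read 7.94, 7.90 and 7.73 in control, 8.25, 8.20 and 8.13 with NFKB1 siRNA and 7.33, 7.36 and 7.41 with both. It rose with NFKB1 siRNA (log2 0.34, SE 0.08, adjusted p = 0.00515) and fell with both (log2 -0.49, SE 0.08, adjusted p = 0.000112). KMT2A, the gene rearranged in infant leukaemia, fell with NFKB1 siRNA and with both, to 72.7% and 79.3%. KMT5B, which di- and trimethylates H4K20, had log2 changes of -0.65 with NFKB1 siRNA and 0.68 with both, both called, while KMT5A, which monomethylates the same lysine, fell with both siRNAs to 80%. The PHD finger gene KMT2E had -0.37 and 0.63, both called, although the first was not called without NFKB1 replicate 3 (-0.23) or control replicate 2 (-0.35) or 3 (-0.29).

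SETD genes gave 3 rises and 3 falls of 8 tested with both siRNAs, beside 31.9% and 49% of all genes. SETD7, which monomethylates H3K4 and several non-histone proteins, read 8.71, 8.79 and 9.24 in control, 8.80, 8.90 and 8.91 with ETV6 siRNA, 8.56, 8.51 and 8.52 with NFKB1 siRNA and 9.96, 9.92 and 9.93 with both. The double knock-down arrays are the highest and the NFKB1 siRNA arrays the lowest, and neither group overlaps control. The rise with both was 2.02-fold (log2 1.02, SE 0.11, adjusted p = 7.68e-06) and the fall with NFKB1 siRNA reached 76.6% of control. SETD1B, the H3K4 methyltransferase of a COMPASS complex, read 10.54, 10.63 and 10.60 in control and 10.06, 10.01 and 10.10 with both siRNAs. Its fall to 69% (log2 -0.54, SE 0.05, adjusted p = 3.11e-06) came without a call in either single knock-down. SETD2, the enzyme for trimethylation of H3K36 that is mutated in paediatric high-grade glioma, had log2 changes of -0.63 with NFKB1 siRNA and 0.72 with both, both called. SETDB1, which trimethylates H3K9, rose to 122% with NFKB1 siRNA and fell to 86.6% with both. The rise was not called without control replicate 2 (log2 0.21) or 3 (0.25) or NFKB1 replicate 2 (0.28). Its double knock-down arrays overlap control, and that fall was lost in 12 alternatives: without control replicate 1 it was -0.09 (adjusted p = 0.171). SETD3, an actin histidine methyltransferase, rose to 118% with both siRNAs, a call lost under both other scalings (log2 0.13 and 0.17) and without control replicate 1 or 2 or double knock-down replicate 2 (0.20 to 0.22), and SETD4 fell to 76.5%.

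The classical deacetylases gave 0 calls of 9 with ETV6 siRNA, 3 rises and 2 falls with NFKB1 siRNA and 1 rise and 4 falls with both. Over all genes the shares that rose and fell were 4.38% and 6.28%, 15.5% and 25.1%, and 31.9% and 49%. Under both other scalings the deacetylase counts with NFKB1 siRNA were 5 and 2. Their 4 falls with both siRNAs became 6 at a common median and 5 after quantile normalization. HDAC1, whose probe set had the highest mean of the 80 (12.24), read 12.29, 12.17 and 12.15 in control, 12.30, 12.33 and 12.33 with ETV6 siRNA, 12.26, 12.33 and 12.35 with NFKB1 siRNA and 12.07, 12.16 and 12.19 with both. The group means lie within 0.12 of control, and the change was not called in any control comparison (adjusted p from 0.108 to 0.295). HDAC2, its partner in the SIN3, NuRD and CoREST complexes, read 10.92, 10.95 and 11.13 in control, 10.80, 10.92 and 10.75 with ETV6 siRNA, 10.54, 10.58 and 10.63 with NFKB1 siRNA and 11.09, 11.19 and 11.15 with both. It fell to 75.1% of control with NFKB1 siRNA, where all 3 arrays lie below every other array (log2 -0.41, SE 0.07, adjusted p = 0.000522). With ETV6 siRNA and with both siRNAs its changes were -0.17 (adjusted p = 0.122) and 0.15 (adjusted p = 0.0548); without control replicate 3 the latter was 0.21 (adjusted p = 0.00537).

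HDAC3, the deacetylase of the NCOR and SMRT corepressor complexes, went the other way. It read 10.71, 10.69 and 10.35 in control, 10.47, 10.36 and 10.47 with ETV6 siRNA, 10.86, 10.84 and 10.81 with NFKB1 siRNA and 10.04, 10.06 and 10.09 with both. The NFKB1 siRNA arrays are the highest and the double knock-down arrays the lowest of the 12, and control replicate 3 is the lowest of the control arrays. It rose with NFKB1 siRNA (log2 0.26, SE 0.08, adjusted p = 0.0279; adjusted p = 0.0784 without NFKB1 replicate 1 and 0.0704 without NFKB1 replicate 2) and fell with both to 69.8% of control (log2 -0.52, SE 0.08, adjusted p = 0.000121). The ETV6 siRNA change of -0.15 was not called (adjusted p = 0.323), and without control replicate 3 it was -0.26 and called (adjusted p = 0.00672).

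HDAC9 stood apart from its class IIa relatives. Its arrays read 7.60, 7.87 and 8.23 in control, 7.59, 7.85 and 7.65 with ETV6 siRNA, 7.36, 7.51 and 7.29 with NFKB1 siRNA and 9.14, 9.16 and 9.11 with both. The 3 double knock-down arrays lie close together and above all others, a 2.35-fold rise over control (log2 1.24, SE 0.13, adjusted p = 7.5e-06), and with NFKB1 siRNA HDAC9 fell to 70.1%. HDAC5, of the same class, read 9.71, 9.86 and 9.72 in control and 9.11, 9.11 and 9.06 with both siRNAs, and fell to 63% (log2 -0.67, SE 0.09, adjusted p = 2.85e-05). The other HDAC5 probe set above the filter gave a smaller fall, -0.31. HDAC7 fell to 70.3% with both. HDAC4 rose with NFKB1 siRNA to 125% and was not called in the other control comparisons; the call was lost in 5 of the 22 alternatives, among them without control replicate 2 (log2 0.28) and without NFKB1 replicate 1 (0.26) or 2 (0.29). HDAC6, the cytoplasmic tubulin deacetylase, had log2 changes of 0.36 with NFKB1 siRNA and -0.32 with both, and both were called. HDAC8 was called in neither (0.22 and -0.13).

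SIRT1 parted from the other sirtuins. This nuclear NAD-dependent deacetylase read 7.958, 8.010 and 7.999 in control, 7.82, 7.95 and 7.88 with ETV6 siRNA, 7.56, 7.59 and 7.46 with NFKB1 siRNA and 8.87, 8.75 and 8.87 with both. The control arrays lie close together, with the double knock-down arrays above them and the NFKB1 siRNA arrays below, and no group overlaps control. It fell to 73.1% with NFKB1 siRNA (log2 -0.45, SE 0.06, adjusted p = 9.75e-05) and rose to 179% with both (log2 0.84, SE 0.06, adjusted p = 1.05e-06). The other 4 sirtuins tested fell with both siRNAs, as did 49% of all genes. SIRT2, mostly a cytoplasmic enzyme, had the largest fall of any member in that comparison: its arrays read 9.72, 9.52 and 9.44 in control, 9.62, 9.50 and 9.58 with ETV6 siRNA, 9.64, 9.59 and 9.49 with NFKB1 siRNA and 8.72, 8.79 and 8.86 with both. The single knock-downs overlap control and the double knock-down does not, at 58.5% of control (log2 -0.77, SE 0.07, adjusted p = 4.18e-06). The nuclear SIRT6 and nucleolar SIRT7 fell to 71.8% and 75.4%, and the mitochondrial SIRT3 to 78.5%.

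Of 12 SMARC genes tested, 7 fell and 3 rose with both siRNAs, or 58.3% and 25%, beside 49% and 31.9% of all genes. The 7 that fell hold SMARCA4, an ATPase of SWI/SNF, and 5 of its partner subunits, and the 3 that rose are SMARCA1, SMARCA5 and SMARCE1. SMARCA4 read 10.85, 10.92 and 10.81 in control, 10.95, 10.85 and 10.89 with ETV6 siRNA, 10.87, 10.86 and 10.66 with NFKB1 siRNA and 10.36, 10.41 and 10.38 with both. The first 3 groups overlap and the double knock-down lies below them, at 71.8% of control (log2 -0.48, SE 0.06, adjusted p = 2.46e-05). The 5 SMARCA4 probe sets above the filter gave -0.39 to -0.67 there. In the single knock-downs it was not called (log2 0.04 with ETV6 siRNA, adjusted p = 0.8, and -0.07 with NFKB1 siRNA, adjusted p = 0.401), and the sign of both values changed with the processing.

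SMARCB1, a core subunit of SWI/SNF and the gene lost in rhabdoid tumours, read 8.30, 7.95 and 8.04 in control and 7.45, 7.56 and 7.57 with both siRNAs. It fell to 67.4% (log2 -0.57, SE 0.09, adjusted p = 0.000163), with no overlap between the groups. SMARCD1, an accessory subunit, read 7.75, 7.71 and 7.65 in control and 7.12, 7.23 and 7.18 with both, and fell to 69.4% (log2 -0.53, SE 0.07, adjusted p = 3.38e-05). The other subunits that fell were SMARCC2 (71.2%), SMARCD2 (69.6%) and SMARCD3 (73.3%), and SMARCAL1, an annealing helicase outside SWI/SNF, fell to 80.3%. ARID1A, the SWI/SNF subunit most often mutated in cancer, fell to 74.5%, while its alternative subunit ARID1B was not called (log2 -0.10, adjusted p = 0.286).

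SMARCA2, the alternative ATPase to SMARCA4, was 1 of the 4 members that fell with ETV6 siRNA. It read 9.78, 9.88 and 9.79 in control, 9.55, 9.55 and 9.32 with ETV6 siRNA, 9.50, 9.35 and 9.33 with NFKB1 siRNA and 9.70, 9.70 and 9.64 with both. Both single knock-downs lie below control without overlap, at 78.9% (log2 -0.34, SE 0.07, adjusted p = 0.0106) and 74.4% (log2 -0.43, SE 0.07, adjusted p = 0.000803). The ETV6 siRNA call was lost when only the groups compared were fitted (adjusted p = 0.078). For the double knock-down its probe sets disagree: the brightest gave -0.14 (adjusted p = 0.0986) and another 0.38 (adjusted p = 0.000372), so no direction is given. Both are of the type that Affymetrix marks as open to cross-hybridisation. SMARCC1, a scaffold subunit, fell to 71.3% with NFKB1 siRNA and read 0.01 with both, where its 4 probe sets ranged from 0.01 to 0.44, the highest with an adjusted p of 0.000514.

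The ISWI ATPases SMARCA5 and SMARCA1, which space nucleosomes, were lower with NFKB1 siRNA and higher with both siRNAs. SMARCA5 read 8.20, 8.56 and 8.83 in control, 8.21, 8.57 and 8.08 with ETV6 siRNA, 7.95, 7.72 and 7.43 with NFKB1 siRNA and 9.57, 9.61 and 9.44 with both. Control and ETV6 siRNA arrays overlap, with the NFKB1 siRNA arrays below and the double knock-down arrays above them. The changes were -0.83 (SE 0.17, adjusted p = 0.00303) with NFKB1 siRNA and 1.01 (SE 0.17, adjusted p = 0.000215) with both. SMARCA1 gave -0.61 and 0.64, both called. SMARCE1, the HMG subunit of SWI/SNF, rose to 175% with both siRNAs and was not called with either alone (adjusted p = 0.794 and 0.0587).

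Outside SWI/SNF, ARID4B and ARID5B were the only ARID genes that passed the filter. ARID4B, a subunit of the SIN3 deacetylase complex, read 8.45, 8.53 and 8.98 in control, 8.10, 8.47 and 7.96 with ETV6 siRNA, 7.99, 7.79 and 7.65 with NFKB1 siRNA and 9.52, 9.39 and 9.44 with both. The NFKB1 siRNA arrays lie below control and overlap those of ETV6 siRNA, and the double knock-down arrays are the highest, with changes of -0.85 (SE 0.15, adjusted p = 0.00118) and 0.80 (SE 0.15, adjusted p = 0.000423). ARID5B, which partners a demethylase, had -0.36 and 0.50, both called.

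The CHD remodellers held the largest falls with the single siRNAs. With ETV6 siRNA 2 of 8 fell and 0 rose under all 3 scalings, beside 6.28% and 4.38% of all genes on the deposited values. With NFKB1 siRNA 6 fell and 0 rose, beside 25.1% and 15.5% of all genes. Under both other scalings the latter counts were 3 falls and 1 rise. CHD9 read 9.31, 9.39 and 10.34 in control, 8.63, 8.95 and 8.53 with ETV6 siRNA, 8.82, 8.61 and 8.30 with NFKB1 siRNA and 10.45, 10.32 and 10.31 with both. Both single knock-downs lie below control; control replicate 3 sits far above the other 2 control arrays, inside the double knock-down range. The changes were -0.97 (SE 0.23, adjusted p = 0.021) with ETV6 siRNA, -1.10 (SE 0.23, adjusted p = 0.00337) with NFKB1 siRNA and 0.68 (SE 0.23, adjusted p = 0.0172) with both. Without control replicate 3 they were -0.64, -0.77 and 1.01, all called. The rise with both siRNAs was not called without control replicate 1 (0.50), control replicate 2 (0.54) or double knock-down replicate 1 (0.64, adjusted p = 0.0515). The fall with ETV6 siRNA was not called without ETV6 replicate 1 (-0.93) or 3 (-0.89), or when only the groups compared were fitted (adjusted p = 0.117).

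CHD1, which binds trimethylated H3K4 at active genes, had a like pattern. Its arrays read 8.03, 7.93 and 8.61 in control, 7.61, 7.79 and 7.14 with ETV6 siRNA, 7.13, 7.33 and 6.85 with NFKB1 siRNA and 8.85, 8.90 and 8.78 with both. Again control replicate 3 is the highest control array, and the groups do not overlap control. Changes were -0.68 (SE 0.19, adjusted p = 0.046), -1.09 (SE 0.19, adjusted p = 0.00119) and 0.65 (SE 0.19, adjusted p = 0.0085). The ETV6 call is weak: without control replicate 3 the value was -0.47 (adjusted p = 0.0891), and 11 of the alternatives lost it, among them the one that keeps all genes (adjusted p = 0.0606). The CHARGE syndrome gene CHD7 and the related CHD6 fell to 86.8% and 83.8% with NFKB1 siRNA. CHD2 gave -0.25 with NFKB1 siRNA and 0.31 with both, both called. The NuRD ATPases CHD4 and CHD3 fell with both siRNAs, to 70.5% and 83.1%, whereas CHD1L, a remodeller recruited to DNA breaks, rose to 121%. With NFKB1 siRNA CHD4 was at 87.8%, a call lost in 14 alternatives, the common-median scaling included (adjusted p = 0.183), and CHD2 and CHD7 lost theirs under both other scalings.

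**Figure D2:**
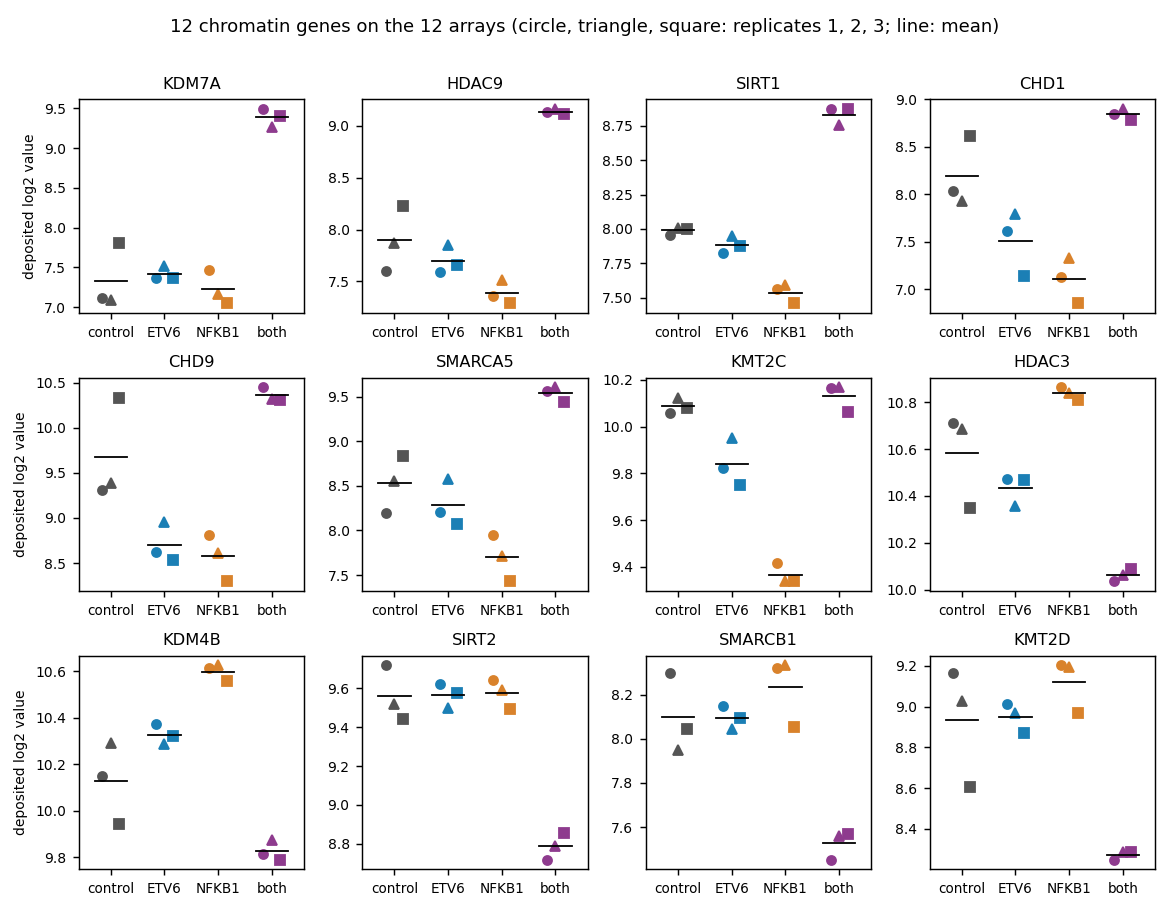
Deposited log2 values (y axis) of 12 chromatin genes in the 4 groups, with 1 symbol per array (circle, triangle and square for replicates 1, 2 and 3) and a line at the group mean. KDM7A, HDAC9, SIRT1, CHD1 and SMARCA5 are highest with both siRNAs, and HDAC3, KDM4B, SIRT2, SMARCB1 and KMT2D lowest. Of these, all but SIRT1 and SMARCB1 have control replicate 3 (grey square) as the control array nearest to the double knock-down, and so has CHD9.

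Whether the double knock-down equals the sum of the single ones was tested by the interaction, which uses all 4 groups. It is the change with both siRNAs minus the changes with each (log2). The higher total siRNA load of the double knock-down enters it as well, and the part of that load was not tested. Of the 65 members 25 were above and 32 below the sum, 38.5% and 49.2% beside 36.5% and 49.8% of all genes, shares close to that background. The 4 highest were CHD9 at 2.76 (SE 0.33, adjusted p = 1.82e-05), CHD1 at 2.42 (SE 0.27, adjusted p = 1.38e-05), ARID4B at 2.12 (SE 0.21, adjusted p = 7.29e-06) and SMARCA5 at 2.08 (SE 0.24, adjusted p = 1.64e-05). The 4 lowest were KDM4B at -0.97 (SE 0.11, adjusted p = 1.06e-05), KDM6B at -0.87 (SE 0.09, adjusted p = 9.5e-06), KMT2D at -0.87 (SE 0.17, adjusted p = 0.000453) and KMT2B at -0.86 (SE 0.11, adjusted p = 2.51e-05). The median over members was -0.28, beside -0.18 over all genes; with the arrays at a common median these were -0.49 and -0.39. Every member with an interaction above 1 also rose with both siRNAs, except KMT2C (1.01), which fell with each siRNA alone and read 0.05 with both. The 8 members not called were ARID1B, CHD1L, HDAC8, KDM1A, KDM3B, KDM5B, SETD3 and SETD9. Among them were KDM1A (-0.11, 95% interval -0.27 to 0.05), KDM3B (-0.08, -0.25 to 0.08) and KDM5B (0.06, -0.13 to 0.25). The calls of CHD6, CHD7, KDM4C, KMT2A and SETD5 were lost under both other scalings.

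**Figure D3:**
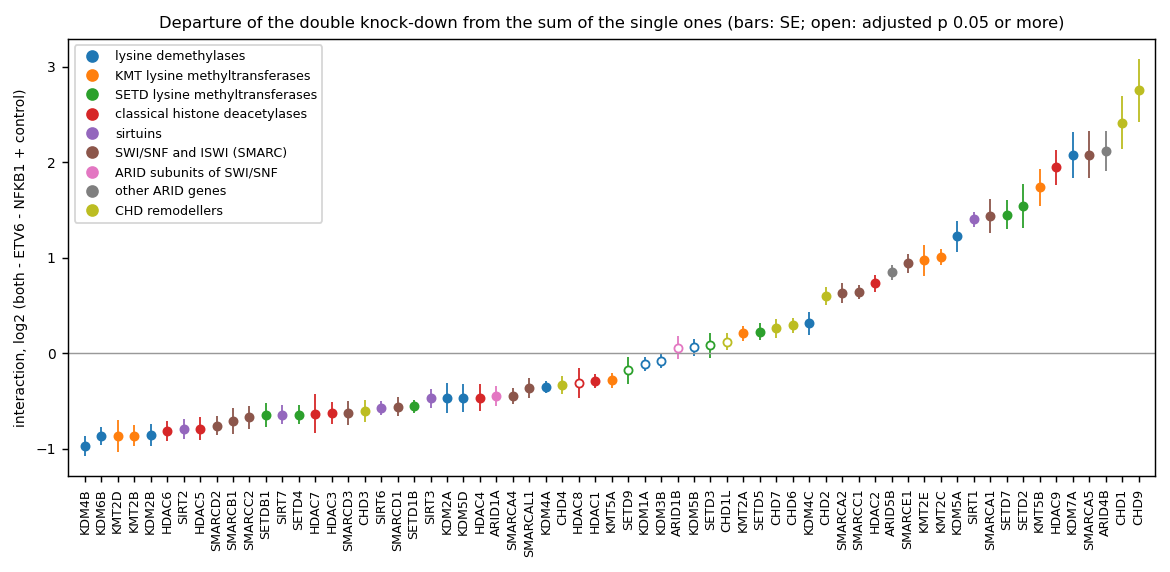
Interaction (y axis, log2: both siRNAs minus ETV6 siRNA minus NFKB1 siRNA plus control) of the 65 tested chromatin genes in ascending order, coloured by role, with bars of 1 SE and open symbols where the adjusted p was 0.05 or more. Values run from -0.97 for KDM4B to 2.76 for CHD9, and 57 of the 65 passed the test.

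Set against the single knock-downs, without the control means, the double knock-down gave these extremes. Against ETV6 siRNA 22 members were higher and 31 lower (34.9% and 51.2% of all genes were), with KDM7A (1.97), CHD9 (1.66), HDAC9 (1.44) and CHD1 (1.33) at the top and SIRT2 (-0.78), HDAC5 (-0.72), KMT2D (-0.68) and SMARCD1 (-0.63) at the bottom. Against NFKB1 siRNA 27 were higher and 32 lower (37.7% and 51.4% of all genes were), led by KDM7A (2.16), SMARCA5 (1.84), CHD9 (1.79) and HDAC9 (1.75), with KMT2D (-0.85), KMT2B (-0.83), SIRT2 (-0.79) and HDAC3 (-0.78) lowest. These 16 values had adjusted p from 3.5e-07 to 0.000209. Between the single knock-downs 16 members were higher and 5 lower with ETV6 siRNA than with NFKB1 siRNA, beside 21.8% and 13.1% of all genes. The largest of those called were SMARCA5 (0.59), KMT2C (0.48), SMARCA1 (0.41) and KMT2E (0.39), and HDAC3 (-0.40), KMT2B (-0.30), KDM4B (-0.27) and SIRT7 (-0.25). That split of 16 and 5 became 9 and 10 with the arrays at a common median and 12 and 10 after quantile normalization, so its lean to ETV6 siRNA depends on the scaling. The 21 calls became 8 without ETV6 replicate 2 and 11 without NFKB1 replicate 2.

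Without control replicate 3, all 51 members called with both siRNAs kept their call and direction and 1 was gained. With NFKB1 siRNA 28 of 33 calls were kept, the 5 lost being CHD4, KMT2E, SETD4, SETDB1 and SMARCD2. With ETV6 siRNA 3 of 4 were kept, and CHD1 was lost. Where a member had several probe sets above the filter (24 members), all pointed the same way in 19 with ETV6 siRNA, 20 with NFKB1 siRNA, 21 with both and 22 for the interaction, and no member had probe sets called in opposite directions.

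**Figure D4:**
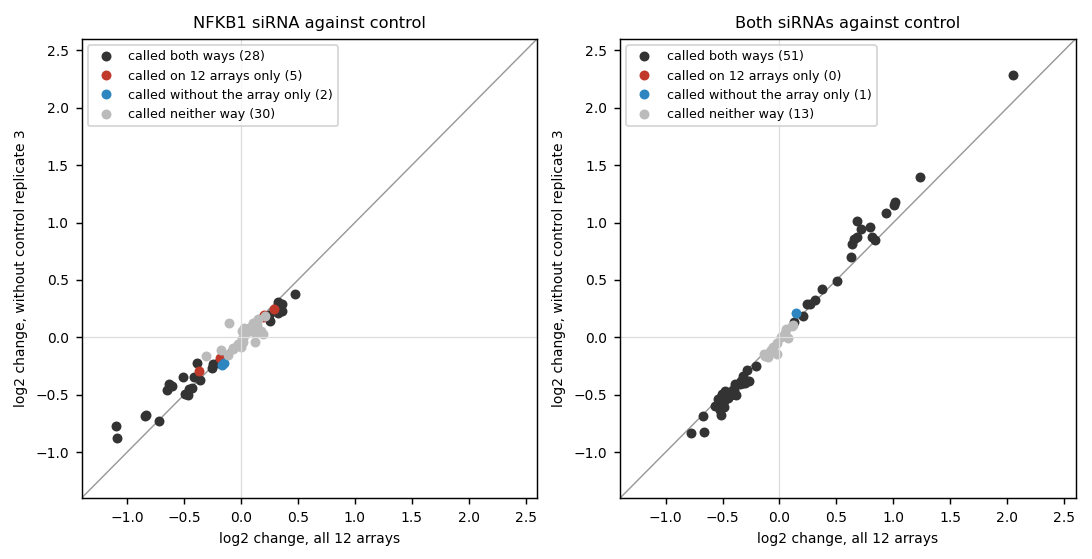
Log2 change of the 65 tested chromatin genes over all 12 arrays (x axis) and without control replicate 3 (y axis), for NFKB1 siRNA (left) and both siRNAs (right); the diagonal marks equal values and colours show in which fit a gene was called. With both siRNAs the points run along or outside the diagonal and 51 are called either way, while with NFKB1 siRNA 5 calls are lost and the largest falls shrink towards 0.

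The complexes these members work in were described from lists of other genes, by counts and medians only. With both siRNAs the 20 NuRD, SIN3, NCOR and CoREST subunits tested gave 5 rises and 11 falls (median -0.32), the 14 of Polycomb repressive complex 1 gave 4 and 10 (median -0.36), and the 11 of Polycomb repressive complex 2 gave 6 and 3 (median 0.16), beside 31.9% and 49% and a median of -0.13 over all genes. TBL1XR1, a subunit of the HDAC3 corepressor complexes, rose with both siRNAs (log2 1.82) and MBD3, a NuRD subunit, fell (log2 -0.62). Of 7 arginine methyltransferases none rose and 6 fell (median -0.59). Of the 13 COMPASS subunits, partners of the KMT2 and SETD1 enzymes, 4 rose and 6 fell (median -0.11), among them WDR5, a shared core subunit (log2 -0.51). The 27 subunits of ISWI, INO80, SRCAP and TIP60 complexes gave 7 rises and 15 falls (median -0.26). The 13 histone acetyltransferases gave 5 rises and 7 falls (median -0.22) and the 12 SWI/SNF subunits outside the symbol rule 4 and 5 (median -0.07). The 8 other histone lysine methyltransferases gave 1 rise and 4 falls (median -0.21). With ETV6 siRNA these lists held 0 to 3 falls each and 0 rises. BAZ1A, a partner of SMARCA5, had a log2 change of -1.29 with NFKB1 siRNA (adjusted p = 9.24e-05). With NFKB1 siRNA, beside 15.5% of all genes higher and 25.1% lower (median 0.01), the readers and the DNA methylation genes held the most falls for their size. Of 23 bromodomain and methyl-lysine readers 3 rose and 11 fell (median -0.11), and with both siRNAs 10 rose and 11 fell (median 0.02). Of 11 DNA methylation and heterochromatin genes 0 rose and 6 fell with NFKB1 siRNA (median -0.22), and 3 rose and 5 fell with both (median -0.16). The NuRD, SIN3, NCOR and CoREST subunits gave 1 rise and 7 falls with NFKB1 siRNA (median -0.01), the acetyltransferases 2 and 5 (median -0.10) and Polycomb repressive complex 2 gave 2 and 4 (median -0.13). Polycomb repressive complex 1 gave 3 and 3 (median 0.08), the ISWI, INO80, SRCAP and TIP60 subunits 3 and 5 (median 0.03) and COMPASS 1 and 3 (median 0.04). The other SWI/SNF subunits gave 0 and 3 (median 0.01), the other lysine methyltransferases 1 and 3 (median 0.00) and the arginine methyltransferases 0 and 1 (median 0.05).

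The 15 members under the filter had means of 5.44 to 7.33 (the tested ones 7.56 to 12.24), and their values are given without a test. SMARCAD1, just under the threshold at 7.33, read 6.68, 6.95 and 7.79 in control and 8.78, 8.57 and 8.70 with both siRNAs. The SWI/SNF subunit ARID2 read 7.23, 7.23 and 7.45 in control and 8.11, 8.02 and 7.97 with both. The H3K27 demethylase KDM6A read 7.10, 6.89 and 7.22 in control and 7.86, 7.84 and 7.92 with both. In these 3 genes, named after their values were seen, the double knock-down arrays lie above control, as they do in SETD6 and SETDB2. They lie below control in KDM5C (6.643 to 6.809, against 6.954 to 7.403 in control) and KMT5C (5.861 to 5.975, against 6.121 to 6.261). In the remaining untested members they overlap control. KDM7A-DT, which starts beside KDM7A on the other strand, read 6.32, 6.53 and 6.48 in control and 6.57, 6.44 and 6.48 with both. Its control and double knock-down arrays thus overlap, where those of KDM7A do not. Its single knock-down arrays lie above control, at 6.630 to 6.646 with ETV6 siRNA and 6.679 to 6.795 with NFKB1 siRNA. CHD6, the tested member nearest to the threshold, ranged from 7.25 to 7.75 over the 12 arrays.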

How the data were processed

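Total RNA of 12 samples labelled as 4 groups of 3 was hybridised to Affymetrix expression arrays. Each array is 1 column of deposited values on a log2 scale; the authors' background correction and normalization are not given in the sources used here, and neither is the array signal behind each value, so the number of arrays limits the precision. Probe sets were named from the platform annotation: of 19520 probe sets 17313 had 1 gene and 857 had several, which were left out. Each gene was followed by its brightest probe set over the 12 arrays, and genes below the 25th percentile of mean log2 value (7.54) were not tested, except NFKB1, which was kept as a target. One linear model of the 4 group means was fitted to the 12 arrays (limma 3.58.1, R 4.3.3), with Benjamini-Hochberg adjustment over 7760 genes and a threshold of 0.05. The labels do not say whether replicates were separate cultures, so p-values measure only the spread between these arrays, which may be technical. An exact permutation test of 3 against 3 arrays cannot go below 0.1 and was not used.

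Array values are printed for genes chosen among the 6 members with the largest called rises and falls in each control comparison (3 arrays clear of control), the 4 in each other comparison, and HDAC1, HDAC2, HDAC3, KDM1A, SMARCA2 and SMARCA4 throughout; from other lists up to 3 genes with the smallest adjusted p. HDAC4, HDAC6, KDM2B, KDM5D, KMT2E, KMT5B, SIRT7 and SMARCA1 met that rule and are given as changes, as are the other members. Members and gene lists were chosen with earlier results of these data known. Alternatives were 22 in number: scaling, filter, probe set summary, variance model, replicate block and each array left out. Promoter windows come from RefSeq (GRCh38.p14). No 2 arrays were identical. The fit was tested on simulated data.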

Additional observations from a re-analysis of the deposited data

Results flagged for a closer look

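The effect of one siRNA differed with and without the other in 57 of 65 chromatin genes, by the interaction term of the limma fit (adjusted p under 0.05). Among all genes tested 36.5% were above and 49.8% below the sum of the single effects, so a count of this size was general on these arrays. The largest departures upward were CHD9 at 2.76, CHD1 at 2.42, ARID4B at 2.12 and SMARCA5 at 2.08 on the log2 scale. The largest downward were KDM4B at -0.97, KDM6B at -0.87, KMT2D at -0.87 and KMT2B at -0.86. The double knock-down also had a higher total siRNA load than the other groups. Its arrays differed from the rest in the ACTB 3′ over 5′ difference and in the poly-A spike-ins. The part of the load and of these measures in the departures was not tested.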

How the results depend on the processing

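With ETV6 siRNA the 0 rises and 4 falls among members became 8 and 10 with array weights, 0 falls when only the groups compared were fitted, and 7 falls without both control replicate 3 and ETV6 replicate 2; leaving out single arrays gave 0 to 2 rises and 1 to 6 falls. With NFKB1 siRNA the 12 rises became 19 with arrays at the same median, 21 after quantile normalization, 4 with only the groups compared and 7 without both arrays, and single arrays left out gave 5 to 16 rises and 18 to 23 falls. Leaving out genes under the 50th percentile, which tests fewer members, gave 5 rises and 12 falls with NFKB1 siRNA, 9 and 15 with both siRNAs, and 13, 27, 29 and 27 calls for ETV6 against NFKB1 siRNA, both against ETV6 siRNA, both against NFKB1 siRNA and the interaction. ETV6 against NFKB1 siRNA gave 36 calls with array weights and 8 to 30 with single arrays left out. Single arrays left out gave 18 to 22 rises and 28 to 30 falls with both siRNAs, and 51 to 53, 56 to 60 and 55 to 57 calls in the last 3 comparisons. SMARCA2 with both siRNAs turned from -0.14 to 0.059 on the mean of its probe sets and 0.379 on another probe set. SMARCA4, never called in a single knock-down, turned to -0.02 with array weights (ETV6 siRNA) and, with NFKB1 siRNA, to 0.023 at the same median, 0.011 on the mean of its probe sets, and 0.016, 0.067 and 0.153 on other probe sets, with -0.101 to 0.002 as single arrays were left out. Apart from the narrower filter and the arrays left out, the causes were not tested. Replicate numbers do not pair the arrays (18 same-number pairs, correlations -0.516 to 0.482, 5 over 0.1); with the replicate block the counts were 0 and 3, 12 and 22, and 22 and 30 against control, then 21, 53, 60 and 58.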
